A study of Mus musculus with 8 samples.

Results

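The genes described here are 9 genes for digestive enzymes and a cofactor that acinar cells of the pancreas make: Cela1, Cela2a, Ctrl, Ctrb1, Cpa1, Cpb1, Clps, Cel and Pnlip. They were read in RNA from sorted mouse bile duct cells. They are 9 of the 20377 gene symbols in the deposited tables, were found by symbol, and each had 1 transcript row. The members were selected on their levels in these same libraries, where acinar genes stood high in some of the ST14high samples, so their levels and their difference between the populations are given as a description, with no test.

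Wild-type C57BL/6 mice gave the cells, and the labels name no transgene; age and sex are not given in the labels. From liver NPCs (non-parenchymal cells), cells binding MIC1-1C3, an antibody to duct cells, and negative for CD26 and blood markers were sorted into an ST14high and an ST14low population. ST14 is matriptase, a membrane serine protease of epithelia. There were 4 libraries of each population, from freshly sorted cells of bulk samples, with 17418202 to 42769988 counts in ST14high and 6398307 to 31011678 in ST14low. The labels do not say which libraries came from separate animals, so spreads and p-values measure these samples only.

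Acinar cells store digestive enzymes in granules and release them into the pancreatic duct. The proteases among them (elastases, chymotrypsins, carboxypeptidases) leave the cell as inactive zymogens that trypsin activates in the gut, while pancreatic lipase needs colipase to work on bile-coated fat. Their genes are driven together by PTF1, a complex of Ptf1a, an E protein and Rbpjl that binds an E-box and a neighbouring TC-box. The common bile duct and the ventral pancreas share an origin in the embryonic foregut, and in humans pancreatic acini have been described among the glands of large bile ducts.

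Upstream sequences are shown for 4 of the genes, because the 9 genes were high in the same libraries and PTF1 is a known regulator of acinar enzyme genes. Of the 9 genes, 8 matched the RefSeq promoter table (build GRCm38.p6); Clps is named only. Each line gives 250 bases before the annotated start, 5′ to 3′ on the gene's strand. Capitals mark CACCTG (an E-box letter order) or TTTCCC (a TC-box letter order), each searched on both strands, and TATAAA on the gene's strand only. None of the marked matches overlap. Cela1 lies on the minus strand at chr15:100687921-100688170, Ctrb1 on the minus strand at chr8:111691011-111691260, Cel on the minus strand at chr2:28563404-28563653 and Pnlip on the plus strand at chr19:58670115-58670364.
Cela1: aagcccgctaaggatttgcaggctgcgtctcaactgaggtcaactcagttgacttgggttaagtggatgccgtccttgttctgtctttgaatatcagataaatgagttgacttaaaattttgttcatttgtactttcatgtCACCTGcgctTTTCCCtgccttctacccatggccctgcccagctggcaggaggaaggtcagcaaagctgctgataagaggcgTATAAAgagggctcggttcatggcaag
Ctrb1: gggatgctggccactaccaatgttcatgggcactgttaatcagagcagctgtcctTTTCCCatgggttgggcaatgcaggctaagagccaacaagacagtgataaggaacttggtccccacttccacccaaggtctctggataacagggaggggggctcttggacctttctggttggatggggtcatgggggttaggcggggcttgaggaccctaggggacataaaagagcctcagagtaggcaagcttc
Cel: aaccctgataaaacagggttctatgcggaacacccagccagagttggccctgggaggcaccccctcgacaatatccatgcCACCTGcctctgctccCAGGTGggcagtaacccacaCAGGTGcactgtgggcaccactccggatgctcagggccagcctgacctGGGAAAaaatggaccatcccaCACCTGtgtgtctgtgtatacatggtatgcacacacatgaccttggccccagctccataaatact
Pnlip: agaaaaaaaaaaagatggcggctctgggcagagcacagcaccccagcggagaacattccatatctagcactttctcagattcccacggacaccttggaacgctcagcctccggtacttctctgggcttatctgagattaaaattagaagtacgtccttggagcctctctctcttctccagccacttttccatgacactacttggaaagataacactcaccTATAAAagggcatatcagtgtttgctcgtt
Cela1 was chosen as a member read in every library, Ctrb1 as the highest per length in ST14high replicate 1, and Cel and Pnlip as lipases that were at 0 counts in some libraries.

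In Cela1 the CACCTG match began 109 bases before the start and the TTTCCC match 99 bases before it, in the same orientation. Among the 8 upstream stretches, 5 held CACCTG, against 17.2% of the 32851 stretches of that length in the table. TTTCCC was in 5 of 8, against 21.9% of all. Cela1, Cela2a and Cel held both, as did 3.61% of all. TATAAA was in Cela1 and Pnlip, against 7.59% of all. Cel held 4 CACCTG matches and Ctrb1 held none in this window. Other E-box letter orders were not searched in any stretch, so no CACCTG match does not mean no E-box. The Ctrb1 stretch reads CAGCTG, such an order, shortly before its TTTCCC match. These matches describe the letters only.

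Duct cell genes were at high levels in every library: the 20 listed biliary genes were all read in all 8, and summed to 36304 to 58323 CPM in ST14high and to 38894 to 59177 CPM in ST14low. Epcam, an epithelial adhesion molecule, averaged 569 ± 43.7 CPM (counts per 1e6 of the TMM-scaled library; SD, n = 4) in ST14high and 582 ± 54.8 CPM (SD, n = 4) in ST14low. Sox9, a transcription factor of ducts, averaged 460 ± 39.8 CPM in ST14high and 477 ± 52.7 CPM in ST14low. St14 itself averaged 304 ± 33.1 CPM in ST14high and 329.8 ± 49.0 CPM in ST14low. Dpp4, the gene of CD26, averaged 159 ± 16.4 CPM in ST14high and 138 ± 33.4 CPM in ST14low although the sort selected cells without the protein. ST14high replicate 1 was unlike the other 7 libraries in its 3152 CPM of fibroblast, stellate and muscle genes, against 619 to 1038 CPM in the other ST14high libraries and 250.4 to 552 CPM in ST14low.

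The 9 acinar genes summed to 9766, 1426, 5.71 and 12.6 CPM in ST14high replicates 1 to 4, and to 110.3, 10.3, 5.71 and 10.2 CPM in ST14low replicates 1 to 4. ST14high replicates 1 and 2 were far above the other 6 libraries, ST14low replicate 1 came next, and ST14high replicates 3 and 4 lay below ST14low replicate 1, so the populations overlapped. In ST14high replicate 1 these genes took 156076 counts, 0.896% of the library (exact Clopper-Pearson 95% interval 0.892% to 0.9005%). In ST14high replicate 2 they took 0.149%, and in ST14low replicate 1 they took 0.0111%. All intervals here cover counting error only, since reads amplified by PCR are not independent molecules. In bulk samples, fewer cells of a type and less RNA per cell cannot be told apart.

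The means were 2803 ± 4690 CPM in ST14high and 34.1 ± 50.8 CPM in ST14low (SD, n = 4 each), a log2 ratio of 6.36 in which each SD exceeded its mean. Without ST14high replicate 1 the log2 ratio was 3.82, and without ST14low replicate 1 it was 8.33. With ST14high replicates 1 and 2 both left out it was -1.90. With ST14low replicate 1 left out as well, it was 0.07. The difference in means thus rested on those libraries.

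**Figure D1:**
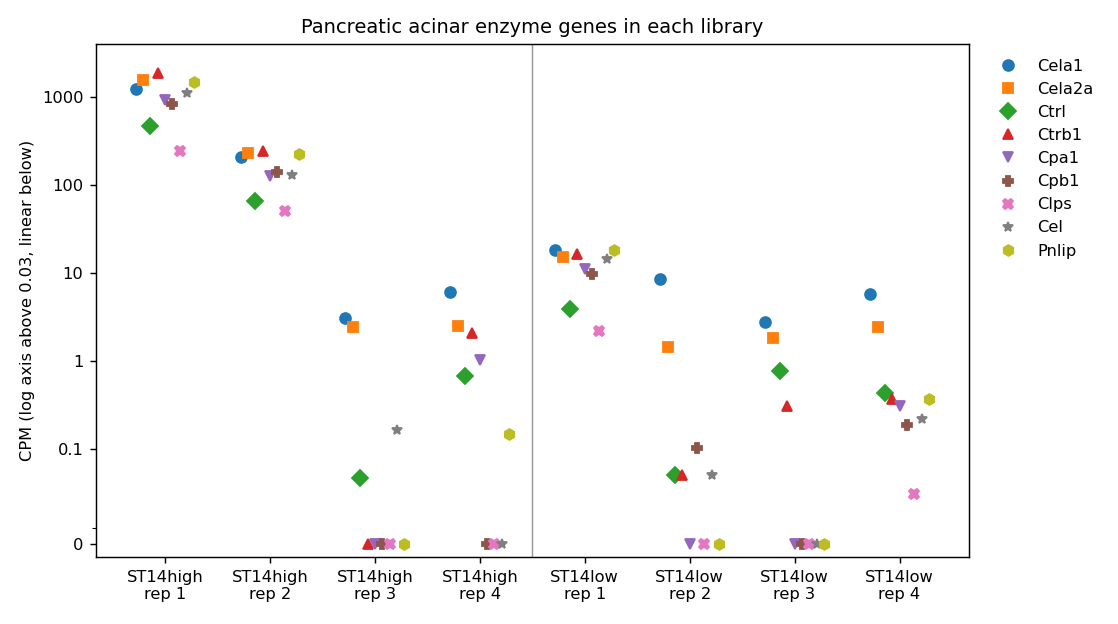
Level of each of the 9 acinar enzyme genes in each library, in CPM on an axis that is logarithmic above 0.03 and linear below; each point is 1 gene in 1 library, with no averaging. All 9 genes stand highest in ST14high replicate 1 and next in ST14high replicate 2, and Cela1 and Cela2a are the genes above 1 CPM in all 8 libraries.

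The elastases come first among the proteases. Cela1 (elastase 1; NM_033612, minus strand, chromosome 15, 100504853 to 100518351 in mm9) had 1249, 210.6, 3.07 and 6.17 CPM in ST14high replicates 1 to 4, and 18.6, 8.66, 2.78 and 5.78 CPM in ST14low replicates 1 to 4. It was read in every library, on at least 18 counts, and ST14high replicates 3 and 4 lay within the range of ST14low. Cela2a (elastase 2A; NM_007919, minus strand, chromosome 4, 141370878 to 141381918) had 1545, 231.5, 2.43 and 2.49 CPM in ST14high replicates 1 to 4, and 15.2, 1.43, 1.85 and 2.44 CPM in ST14low replicates 1 to 4. It too was read in every library, on at least 12 counts.

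The Cela2a transcript overlaps 1013 bases of Casp9, a caspase gene on the opposite strand, in the deposited coordinates. Whether the authors' counting used strand is not given in the sources used here, so reads of both genes could be shared. Casp9 averaged 90.8 ± 31.9 CPM in ST14high and 79.5 ± 6.80 CPM in ST14low (SD, n = 4 each). It was highest in ST14high replicate 1, at 138 CPM, where Cela2a was highest too. Its range was 71.5 to 80.5 CPM in the other ST14high libraries and 74.1 to 89.4 CPM in ST14low. Cela2a counts amounted to 1117%, 287%, 3.40% and 3.41% of the Casp9 counts in ST14high replicates 1 to 4, and to 17.0%, 1.87%, 2.37% and 3.29% in ST14low replicates 1 to 4. The share of low Cela2a values that came from Casp9 reads was not tested. Nor was the share of the Casp9 value in ST14high replicate 1 that came from Cela2a reads. No transcript of another gene overlapped the other 8 members.

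The chymotrypsins left more libraries near 0. Ctrb1 (chymotrypsinogen B1; NM_025583, minus strand, chromosome 8, 114210410 to 114214910) had 1879, 241.5, 0 and 2.08 CPM in ST14high replicates 1 to 4, and 16.7, 0.0512, 0.308 and 0.375 CPM in ST14low replicates 1 to 4. It ran from 30026 counts in ST14high replicate 1 to 0 counts in ST14high replicate 3, the widest span of the 9. Ctrl (a chymotrypsin-like protease; NM_023182, minus strand, chromosome 8, 108455894 to 108457762) had 467, 66.7, 0.0472 and 0.682 CPM in ST14high, and 3.92, 0.0512, 0.771 and 0.438 CPM in ST14low. It was read in all 8 libraries, but on 2 counts in ST14high replicate 3 and 1 count in ST14low replicate 2.

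Carboxypeptidases trim residues from the carboxyl end of peptides. Cpa1 (carboxypeptidase A1; NM_025350, plus strand, chromosome 6, 30589221 to 30595361) had 926, 128.5, 0 and 1.04 CPM in ST14high, and 11.2, 0, 0 and 0.313 CPM in ST14low. Cpb1 (carboxypeptidase B1; NM_029706, minus strand, chromosome 3, 20149383 to 20174651) had 837, 142.2, 0 and 0 CPM in ST14high, and 9.80, 0.102, 0 and 0.188 CPM in ST14low. In ST14high replicate 4 the related genes parted, with 35 counts for Cpa1 and 0 for Cpb1, whereas in ST14high replicates 1 and 2 their counts were close (14791 and 13379, and 3235 and 3581).

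The genes of fat digestion were at or near 0 in 5 of the 8 libraries. Pnlip (pancreatic lipase; NM_026925, plus strand, chromosome 19, 58744855 to 58756278) had 1497, 224.3, 0 and 0.148 CPM in ST14high, and 18.1, 0, 0 and 0.375 CPM in ST14low. Clps (colipase; NM_025469, minus strand, chromosome 17, 28695159 to 28697659) had 246, 50.9, 0 and 0 CPM in ST14high, and 2.22, 0, 0 and 0.0313 CPM in ST14low, the last on 1 count. Lipase and its cofactor were thus both at many counts in the same 3 libraries. Cel (carboxyl ester lipase, the bile salt-dependent lipase; NM_009885, minus strand, chromosome 2, 28411340 to 28418882) had 1121, 129.4, 0.165 and 0 CPM in ST14high, and 14.5, 0.0512, 0 and 0.219 CPM in ST14low. A count of 0 allows a level of up to 0.0708 CPM in ST14high replicate 3, the deepest library, and up to 0.463 CPM in ST14low replicate 3, the shallowest (3 counts per library).

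Per length, on the authors' RPKM scale (reads scaled by transcript length and by depth), Ctrb1 had the highest level of the 9 in ST14high replicate 1 at 2730 RPKM, then Cela2a at 2285, Cela1 at 1409 and Pnlip at 1345 RPKM. The other 5 genes lay between 589 and 704 RPKM there. The first 4 places were held by the same genes in the same order in ST14high replicate 2 (398, 388, 269.5 and 228.7 RPKM) and in ST14low replicate 1 (26.6, 24.6, 23.0 and 17.9 RPKM). In ST14high replicate 4 and ST14low replicates 2, 3 and 4, Cela1 was the highest of the 9, at 7.74 RPKM in ST14high replicate 4 and at 10.4, 3.45 and 7.32 RPKM in those ST14low libraries. In ST14high replicate 3 Cela2a was highest, at 3.87 RPKM, with Cela1 at 3.73 RPKM.

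The make-up of the signal therefore differed between libraries. Cela1 and Cela2a together held 28.6% of the counts of the 9 genes in ST14high replicate 1, 31.0% in ST14high replicate 2 and 30.6% in ST14low replicate 1. They held 96.3% in ST14high replicate 3 (exact 95% interval 93.1% to 98.3%) and 68.7% in ST14high replicate 4 (64.1% to 73.1%). In ST14low replicates 2, 3 and 4 they held 97.5% (94.3% to 99.2%), 81.1% (64.8% to 92.0%) and 80.9% (76.2% to 85.0%). None of these 5 intervals reached the interval of 28.9% to 32.5% in ST14low replicate 1. Summed without the elastases, the remaining 7 genes had 6972, 984, 0.212 and 3.95 CPM in ST14high replicates 1 to 4, and 76.5, 0.256, 1.08 and 1.94 CPM in ST14low replicates 1 to 4.

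**Figure D2:**
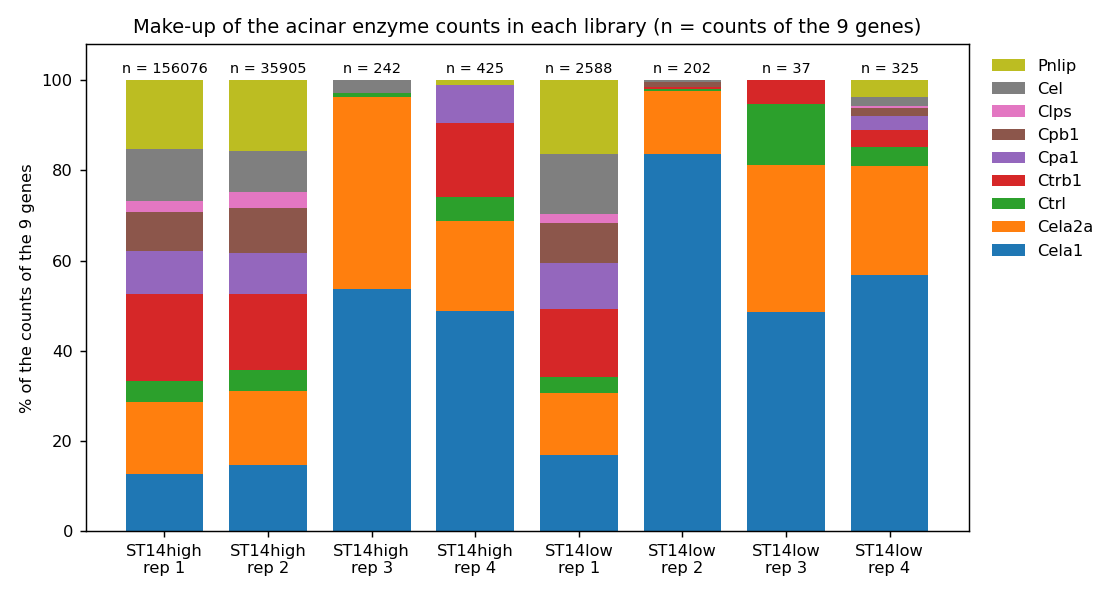
Share of each gene in the summed counts of the 9 acinar enzyme genes, in percent, for each library, with the summed counts printed above each bar. ST14high replicates 1 and 2 and ST14low replicate 1 share a similar make-up, with 28.6% to 31.0% from Cela1 and Cela2a, while these genes hold 68.7% to 97.5% in the other libraries.

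ST14high replicate 4 had a make-up of its own. Ctrb1, Cpa1 and Ctrl held 16.5%, 8.24% and 5.41% of the 425 counts there, near their 19.2%, 9.48% and 4.78% in ST14high replicate 1. Cpb1, Clps and Cel, at 8.57%, 2.52% and 11.5% in ST14high replicate 1, were at 0 counts in ST14high replicate 4, which allows a share of up to 0.864% by the exact 95% interval. Pnlip held 1.18% there, against 15.3% in ST14high replicate 1. The 3 libraries with the most counts of the 9 genes also differed in detail: Cel held 11.5% in ST14high replicate 1 (exact 95% interval 11.3% to 11.6%), 9.08% in ST14high replicate 2 (8.78% to 9.38%) and 13.2% in ST14low replicate 1 (11.9% to 14.5%).

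Gene by gene, the level in ST14high replicate 1 was 4.84 to 8.66 times that in ST14high replicate 2, with a median of 6.68 over the 9 genes. Clps had the lowest ratio (95% counting interval 4.54 to 5.16) and Cel the highest (8.34 to 8.99), so the ratios differed by more than counting error. For the summed genes the ratio was 6.85 (6.77 to 6.93). ST14high replicate 2 lay above ST14low replicate 1 by 8.91 times for Cel up to 23.0 times for Clps, and by 12.9 times for the sum.

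**Figure D3:**
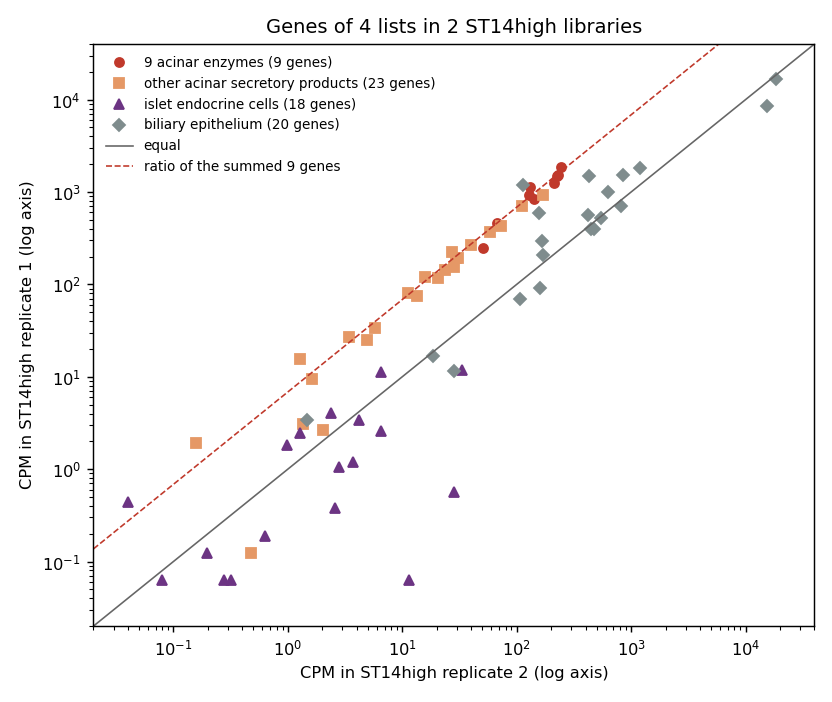
CPM of single genes of 4 lists in ST14high replicate 1 (vertical) against ST14high replicate 2 (horizontal), both on log axes, for genes above 0 in both; the solid line marks equal levels and the dashed line the ratio of 6.85 of the 9 summed genes. Most acinar genes lie near the dashed line, while biliary genes lie around the line of equality and most islet genes lie below it.

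The rest of the acinar secretory programme followed the same libraries. Of 32 other secretory products listed, 30 were in the files, and they summed to 4110, 676, 0.212 and 1.51 CPM in ST14high replicates 1 to 4, and to 45.2, 0.154, 1.08 and 1.44 CPM in ST14low replicates 1 to 4. Of the 30 genes, 7 were at 0 in each of ST14high replicates 1 and 2, 9 in ST14low replicate 1 and 29 in ST14high replicate 3. The trypsinogen gene Prss2 had 701, 111.9, 0 and 0 CPM in ST14high, and 7.63, 0, 0 and 0.156 CPM in ST14low. Pnliprp1, a lipase-related protein, had 426, 72.7, 0 and 0 CPM in ST14high, and 5.71, 0, 0 and 0.188 CPM in ST14low. Reg1, a secreted lectin of acinar cells, differed in having 1.42 CPM in ST14high replicate 4.

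Over the 18 of these genes with at least 50 counts in ST14high replicate 2, the ratio of ST14high replicate 1 to ST14high replicate 2 had a median of 6.11, from 1.30 for the trypsinogen Try10 to 8.15 for Reg1. Trypsinogen genes are near-identical copies, so the split of reads among Prss2, Try4, Try5, Try10 and 2210010C04Rik is uncertain. The pancreatic amylase copies Amy2a2, Amy2a3, Amy2a4 and Amy2a5 were at 0 counts in all 8 libraries, while Amy2b had 24.7 and 4.92 CPM in ST14high replicates 1 and 2. How reads that match several copies were counted is not given in the sources used here.

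The genes whose profile was most like the members were found by the root mean square difference of centred log2(CPM + 0.5) values over the 8 libraries, among 13235 genes with a mean of at least 1 CPM. Among the nearest were Pnliprp1 (0.22), Prss2 (0.30), Rnase1 (0.36), 2210010C04Rik (0.51), Cela3b (0.52), Zg16 (0.63), Try4 (0.80), Try5 (0.80) and Sycn (0.97), where each value is a difference in log2 units. All of these were on the list of other secretory products. The members' own differences ran from 0.39 for Cpa1 to 1.00 for Cela1. Farther off, chosen after their values were seen, came Duox2, an oxidase of mucosal surfaces, and Shh, a secreted morphogen, at 199 and 128 CPM in ST14high replicate 1 and at most 16.3 CPM elsewhere.

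The acinar regulators Ptf1a, Rbpjl and Bhlha15 were under 5 CPM in every library. Ptf1a had 0.501 and 0.437 CPM in ST14high replicates 1 and 2 and 0 counts in the other 6 libraries. Rbpjl, its partner, had 4.13, 0.715, 0.283 and 0 CPM in ST14high, and 0.213, 0.0512, 0.154 and 0.625 CPM in ST14low. Bhlha15, a factor of secretory cells, had 4.82, 2.06, 0.803 and 0.178 CPM in ST14high, and 1.28, 0.563, 0.771 and 0.656 CPM in ST14low. Nr5a2, a nuclear receptor that liver cells use as well, did not follow the enzymes, being at 131.6 CPM in ST14high replicate 1 and 156 to 184 CPM in the other ST14high libraries, against 140.1 to 193 CPM in ST14low. Cckar, the receptor for cholecystokinin on acinar cells, had 7.51, 1.07, 0.708 and 0.0297 CPM in ST14high, and at most 0.0512 CPM in ST14low.

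Endocrine genes of the pancreatic islet peaked in several libraries. Of the 20 on the list, 8 were highest in ST14high replicate 2, 7 in ST14high replicate 4 and 4 in ST14high replicate 1, where all 9 acinar enzyme genes were highest. The 20 islet genes summed to 41.4, 110.9, 3.40 and 75.4 CPM in ST14high replicates 1 to 4, and to 2.22, 1.54, 1.23 and 3.34 CPM in ST14low replicates 1 to 4. The hormone genes Gcg (glucagon) and Ppy (pancreatic polypeptide) were highest in ST14high replicate 2, at 28.3 and 33.2 CPM. Ins1 and Ins2, the insulin genes, were highest in ST14high replicate 4, at 21.3 and 32.4 CPM, where Gcg was at 0 counts and the 9 acinar genes summed to 12.6 CPM. In ST14high replicate 1, the library with the most acinar counts, Ins1 was at 0 counts and Ins2 at 0.0626 CPM. The 4 genes highest in ST14high replicate 1, chosen after their values were seen, were Sst (somatostatin) at 11.1 CPM, Pcsk1 at 4.07 CPM, Chgb at 2.44 CPM and Isl1 at 1.81 CPM, against 6.55, 2.38, 1.27 and 0.993 CPM in ST14high replicate 2. All 4 ST14low libraries were at 0 counts for Ins1.

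Other cell types also moved between libraries. Mesothelial genes (7 of 8 listed were in the files) had a sum of 1018 CPM in ST14high replicate 1 and of 299 to 403 CPM in the other ST14high libraries, against 156 to 269 CPM in ST14low. Gpm6a held most of each ST14low sum, at 133 to 214 CPM, and was at 170 to 241 CPM in ST14high. The other 6 were higher in ST14high with no overlap between populations, where 6.35% of all genes tested did not overlap in either direction. Of the 12 fibroblast, stellate and muscle genes, 11 were highest in ST14high replicate 1. The exception was Rgs5, a pericyte gene, at 114 CPM there and 176 to 251 CPM in the other ST14high libraries, against 156 to 351 CPM in ST14low. Rgs5 held most of the list's sum in ST14low replicates 2, 3 and 4. Endothelial genes (12) summed to 1350 CPM in ST14high replicate 1 and had a range of 20.6 to 324 CPM in the other ST14high libraries, against 257 to 1110 CPM in ST14low. Macrophage genes (11 of 12) summed to 243 to 359 CPM in ST14high, against 355 to 938 CPM in ST14low. Csf1r varied little, at 160 to 236 CPM in ST14high and 199 to 312 CPM in ST14low. It held most of the sum in ST14high replicates 2, 3 and 4. Clec4f had 46.1, 16.1, 0.543 and 19.2 CPM in ST14high replicates 1 to 4, and Cd5l 43.2, 13.5, 0.0708 and 17.4 CPM. In ST14low they had 38.5 to 172 CPM and 32.9 to 153 CPM. No gene of the mesothelial, fibroblast and hepatocyte lists was at 0 in any library, and 1 endothelial and 1 macrophage gene were at 0 in ST14high replicate 3. The part of these cell types in the acinar values was not tested.

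**Figure D4:**
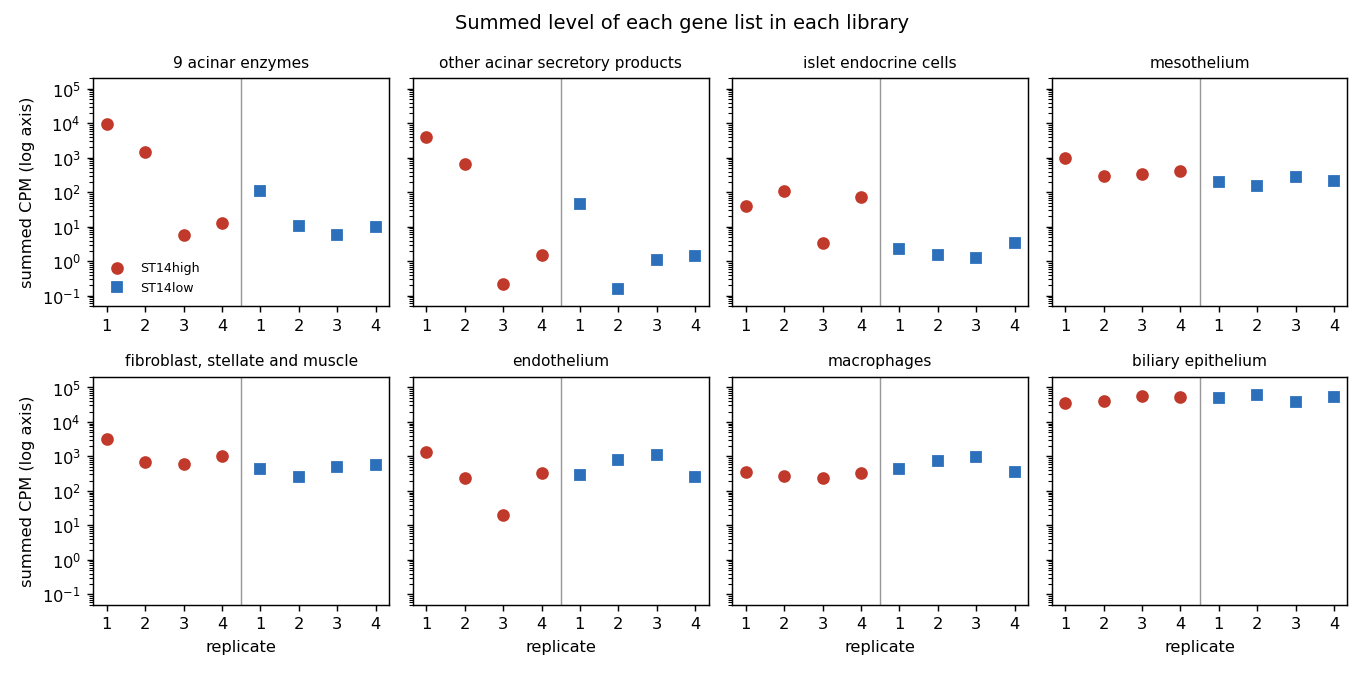
Summed CPM of 8 gene lists in each library on a log axis, with ST14high replicates as circles on the left and ST14low replicates as squares on the right of each panel. The acinar lists span more than the others, from 0.154 to 4110 CPM for the other secretory products, and the islet list peaks in ST14high replicate 2, at 110.9 CPM.

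ST14high replicate 1 was highest for the acinar, mesothelial, fibroblast and endothelial lists, with ratios to ST14high replicate 2 of 6.85, 3.41, 4.56 and 5.70. The mesothelial and fibroblast sums each held a gene that did not follow the rest of its list. Gene by gene, the ratio was 1.35 for Gpm6a and 4.05 to 8.24 for the other mesothelial genes. For Rgs5 it was 0.62, against 3.36 to 11.3 for the other fibroblast, stellate and muscle genes. The hepatocyte genes (12) summed to 4967 CPM in ST14high replicate 1. The sums were 8642 to 12700 CPM in the other ST14high libraries and 8050 to 14653 CPM in ST14low. Alb (albumin) held most of each sum, at 3894 CPM in ST14high replicate 1 and 6637 to 10265 CPM in the other ST14high libraries. Some genes of the list at lower levels were above ST14high replicate 3 in ST14high replicate 1, while others, such as Ahsg and Fga, were below it. Dmbt1, a mucosal glycoprotein chosen after its values were seen, had 23756, 1248, 1.09 and 391 CPM in ST14high replicates 1 to 4, and 164, 7.32, 17.7 and 27.3 CPM in ST14low replicates 1 to 4. Its order of libraries matched the enzymes in the 3 highest only in part, since ST14high replicate 4 came before ST14low replicate 1. Genes of stomach and intestine (20) totalled 122 CPM in ST14high replicate 1 and had a range of 55.6 to 63.7 CPM in the other ST14high libraries, against 44.5 to 65.2 CPM in ST14low. Vil1, a brush border protein, held most of that sum, at 103 CPM in ST14high replicate 1, and 6 of the 20 were at 0 counts everywhere.

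Genes of large ducts and glands (12) summed to 560 to 713.5 CPM in ST14high, against 462 to 591.5 CPM in ST14low. Hhex and Onecut1, factors of liver and duct development, held most of that sum in most libraries. The other 10 genes had 274 CPM in all in ST14high replicate 1 and 21.7 to 72.2 CPM in the other ST14high libraries, against 40.9 to 94.5 CPM in ST14low. Lyz2, a lysozyme gene, held most of the sum of these 10 in ST14low replicates 2 and 3, at 72.0 and 74.8 CPM. It was at 18.7 and 23.4 CPM in ST14low replicates 1 and 4, and at 0.543 to 26.2 CPM in ST14high. Other single genes, chosen after their values were seen, also varied. Sox17, a factor of the biliary bud, had 50.6 CPM in ST14high replicate 1 and 0.0236 to 3.41 CPM in the other ST14high libraries, against 0.767 to 3.79 CPM in ST14low. Pdx1, a factor of pancreas and duodenum, had 2.38 CPM in ST14high replicate 1 and at most 0.754 CPM in any other library. Tff3, a trefoil peptide of mucous cells, had 66.1 CPM in ST14high replicate 1, with the next highest value at 2.22 CPM in ST14high replicate 2. Ltf (lactoferrin), at 58.0 and 29.1 CPM in ST14high replicates 1 and 2 and 0 counts in ST14high replicates 3 and 4, was at 3.28 CPM in ST14low replicate 1 and lower in the other ST14low libraries.

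Across all genes, edgeR's quasi-likelihood test between ST14high and ST14low called 0 of 13749 genes at a Benjamini-Hochberg adjusted p under 0.05, so 0% of genes were called, with 1315 at an unadjusted p under 0.05. With DESeq2, 1.72% of 13580 genes were called, and limma's voom called 0. Of the 9 members, 5 passed the low-count filter (Cela1, Cela2a, Ctrl, Ctrb1 and Cpa1); edgeR called 0 of them and DESeq2 3, and nothing is read from these counts since the contrast chose the genes. Populations did not overlap in 6.35% of the 13749 genes tested, and without the filter in 959 of 16715. Among the members it was 0 of the 9, those that failed the filter included.

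For the other acinar genes the filter left few. Among secretory products it kept Reg1 alone, with a log2 fold change of 6.73 (ST14high over ST14low) and an edgeR adjusted p of 0.376 (unadjusted p 0.0115). Of 15 regulators and machinery genes 8 entered edgeR, 3 of them above 0 on the log2 fold change scale, and 0 were called or had an unadjusted p under 0.05. Without the filter, 24 secretory products and 15 regulators entered the test. A log2 fold change above 0 was found for 23 and for 10 of them, and edgeR called 0 of either, with 22 and 4 at an unadjusted p under 0.05. DESeq2 and limma's voom also called 0 of either list. In that unfiltered fit 9.4% of all 16715 genes had an unadjusted p under 0.05. The median log2 fold change was 6.57 over the 24 secretory products, against 0.01 over all genes of the same fit. These products were at or near 0 in most libraries, and ST14high replicates 1 and 2 held nearly all of their counts. Both lists were chosen with earlier results of these data known, and the secretory products followed the same libraries as the members. Nothing is therefore read from these counts of genes or from the median.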

How the data were processed

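RNA from sorted liver duct cells was sequenced in 8 libraries, 4 ST14high and 4 ST14low, grouped and numbered by the labels. Per the labels' protocols, TRIzol lysates of the cells gave the RNA, and the library kit was Illumina TruSeq. CASAVA 1.8.2, Bowtie 1.0.0 and build mm9 are named in the submitters' processing notes with no role; which program counted reads, against which annotation release and with which strand rule, is not stated in the labels or file headers. The authors deposited raw read counts per RefSeq transcript, per the file headers, and RPKM values beside them, scaled by length and depth by the authors. RPKM entered no test.

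Per symbol the transcript with the largest summed count was kept (26005 rows, 20377 symbols). CPM were computed on library totals scaled by TMM factors. Starts in the files count from 0, since end minus start equalled the RefSeq gene length for 5433 of 14929 single-row genes and end minus start plus 1 for 371, so 1 was added. Within populations, chi-square per degree of freedom between libraries was 18.5 to 352, so no pair agreed within sampling noise.

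The main test over all genes was that of edgeR 4.0.16, run in R 4.3.3 (quasi-likelihood test, TMM, filterByExpr, population as the only term, two-sided, Benjamini-Hochberg threshold 0.05). Its code was run on simulated data with the same dispersion for every gene, which does not measure how the test performs on these libraries. DESeq2 1.42.0 and limma 3.58.1 (voom with quality weights), other scalings, no filter, the longest transcript, the replicate number as a block and left-out libraries were alternatives. Counting intervals are exact at 95%. Python 3.11.15, pandas 2.3.3, numpy 2.4.6, scipy 1.17.1 and matplotlib 3.10.9 were used.

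The members, gene lists, motifs and tests were chosen with earlier results of these data known. Genes were named by rule: the members, genes overlapping them, St14, Dpp4, Epcam, Sox9, any acinar gene, the 10 nearest profiles and the 4 highest of each other list. Dmbt1, Duox2, Shh, Sst, Pcsk1, Chgb, Isl1, Pdx1, Sox17, Tff3, Ltf, Krt19, Cldn4 and Aqp1 were chosen after their values were seen. A gene that the rule names is not reported here. No per-sample column was left unassigned.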

Additional observations from a re-analysis of the deposited data

Results flagged for a closer look

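Replicate 1 stood apart from the other 3 libraries in each population. Of the 24 sets of 4 libraries examined (12 quantities in 2 populations), 19 had a highest library whose gap to the next was above Dixon's 95% limit of the group's range. Since the genes were selected on these levels and vary together, the limit only marks which values are listed here, is no test, and no rate by chance applies.

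In ST14high, replicate 1 lay beyond the limit with Cela1 at 1249 CPM, Cela2a at 1545 CPM, Ctrl at 467 CPM, Ctrb1 at 1879 CPM, Cpa1 at 926 CPM and Cpb1 at 837 CPM. Cel was at 1121 CPM and Pnlip at 1497 CPM. The 9 genes together were at 9766 CPM and the other acinar secretory products at 4110.4 CPM. Clps and the islet list stayed within the limit in ST14high.

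In ST14low, replicate 1 was also the one beyond the limit, at levels far below those of ST14high replicates 1 and 2. Cela2a was at 15.2 CPM, Ctrb1 at 16.7 CPM, Cpa1 at 11.2 CPM, Cpb1 at 9.8 CPM, Clps at 2.22 CPM, Cel at 14.5 CPM and Pnlip at 18.1 CPM. The 9 genes together were at 110.3 CPM and the other acinar secretory products at 45.2 CPM. Cela1, Ctrl and the islet list stayed within the limit in ST14low.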

How the results depend on the processing

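The log2 ratio of the 9 summed genes, 6.36 (ST14high over ST14low), was 6.25 to 6.39 with no TMM factors, DESeq2 size factors, the longest transcript or RPKM, and 3.82 to 8.33 with 1 library left out. Single genes were highest without ST14low replicate 1, where Cela1 had 6.00, Cela2a 7.87, Ctrl 8.31, Ctrb1 11.08, Cpa1 11.31, Cpb1 11.31, Clps 12.80, Cel 11.76 and Pnlip 11.75. With ST14high replicates 1 and 2 left out the ratio of the sum was -1.90, and 7 genes turned below 0: Cela1 (-0.95), Cela2a (-1.09), Ctrl (-1.83), Ctrb1 (-2.07), Cpa1 (-2.47), Cel (-5.48) and Pnlip (-5.96); Cpb1 and Clps, at 0 in both remaining ST14high libraries, gave no value. With ST14low replicate 1 also left out, chosen after seeing the data, the sum was at 0.07, with Cela1 at -0.31, Ctrl at -0.20, Cel at -0.12 and Pnlip at -0.75, while Cela2a (0.37), Ctrb1 (2.08) and Cpa1 (2.32) were above 0. On the RPKM scale Cela1 and Cela2a held 33.4%, 35.3% and 36.2% of the sum in ST14high replicates 1 and 2 and ST14low replicate 1.

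Whether the replicate numbers pair the samples cannot be told from these data. Same-numbered libraries had correlations of 0.16, 0.01, -0.09 and 0.03 in their deviations over 13146 genes. Of the 4 ST14high libraries, 1 (replicate 1) had its own number as its best ST14low match. Low correlations do not show that same-numbered libraries came from separate animals. The fit with a replicate block called 2 genes over all genes and 0 other acinar genes. DESeq2 called 234 genes over all, where edgeR called 0; the cause was not tested. Other acinar genes called stayed at 0 under every setting run. That shows no stability, since all settings but the replicate block and DESeq2 called 0 genes of any kind. The filtered main fit also tested only 1 secretory product and 8 regulators and machinery genes. Genes whose populations did not overlap numbered 873, 812 without TMM factors and 959 without the filter. Depth limits the lowest values most in ST14low replicate 3, where the 9 genes had 37 counts.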
